A study of Homo sapiens with 6 samples.

Results

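OPRK1, AKR1C3 and HSD17B6 are genes that were chosen as androgen-repressed targets of the histone demethylase LSD1 (KDM1A), and H3K4me2 at their loci was examined in LNCaP prostate cancer (PCa) cells. A region of H3K4me2 was assigned to a gene when it overlapped the gene body or the 20 kb on each side of it. In hg19 the gene bodies lie on chromosome 8 from 54138276 to 54164194 (OPRK1), on chromosome 10 from 5136568 to 5149878 (AKR1C3) and on chromosome 12 from 57157108 to 57181574 (HSD17B6). Of the regions in the authors' peak lists, 12 of 99997 vehicle, 13 of 128134 GSK 4 h and 12 of 127189 GSK 24 h regions lay in these 3 windows. Merged over the lists they made 17 of 151781 separate regions, with 6 at OPRK1, 2 at AKR1C3 and 9 at HSD17B6. The name of the gene group could not be checked here, since these files hold neither expression, LSD1 binding nor cells given androgen alone.

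H3K4me2, dimethylated lysine 4 of histone H3, marks promoters and enhancers that are active or can become so. LSD1 removes this mark, so that it can act as a repressor where it is recruited. OPRK1 encodes the kappa opioid receptor, a G protein-coupled receptor best known from neurons. AKR1C3 encodes an aldo-keto reductase that makes testosterone from androstenedione and also takes part in prostaglandin synthesis. HSD17B6 encodes an oxidoreductase that can return androstanediol to DHT, the most potent natural androgen. Both enzymes can thus supply androgen inside a PCa cell.

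LNCaP, an androgen-responsive human PCa line, was profiled by H3K4me2 ChIP-seq after growth in charcoal-stripped (hormone-depleted) serum. The 6 samples formed 3 groups of 2 replicates, namely vehicle without GSK, GSK2879552 (an LSD1 inhibitor) for 4 h (GSK 4 h) and GSK2879552 for 24 h (GSK 24 h). The sample labels add DHT to both GSK groups and not to vehicle, whereas the treatment protocol names the inhibitor alone, so effects of androgen and inhibitor cannot be told apart. Each group was deposited as 1 peak list called on both replicates together, so no value below has a replicate error and no difference between lists was tested.

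The values given for a region are its summit pileup, its height and its fold enrichment. The pileup is the number of fragments over the highest point, worked back from the deposited values. The height is that pileup over the list's own genome-wide background, which allows for depth. It is relative to its own list and so does not measure absolute amounts of H3K4me2. The fold enrichment is the authors' own value and compares the summit with its surroundings. Intervals are exact 95% counting intervals and do not cover the spread between cultures. Inferred depth was 9.43 (vehicle), 10.1 (GSK 4 h) and 8.98 (GSK 24 h) tags per kb, with genome-wide backgrounds of 2.08, 1.88 and 1.97 fragments. The inferred fragment was shorter for GSK 4 h (186 bp) than for vehicle (221 bp) and GSK 24 h (219 bp), which makes GSK 4 h heights at narrow summits less comparable.

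Of the 3 genes, AKR1C3 was the one with a promoter sequence in the RefSeq table (GRCh38.p14), and it is shown because an H3K4me2 region covered the start of this gene in every list. RefSeq holds 2 starts for AKR1C3. The gene body used here (13311 bp in hg19) is nearest in length to the downstream one, which lies 13273 bp from the gene end in GRCh38.p14, against 58906 bp for the other. The sequence below runs from 250 bases before to 50 after that downstream start (chr10:5094164-5094463, plus strand), and the capitals mark a CCAAT box, which reads ATTGG on this strand.

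AKR1C3 promoter: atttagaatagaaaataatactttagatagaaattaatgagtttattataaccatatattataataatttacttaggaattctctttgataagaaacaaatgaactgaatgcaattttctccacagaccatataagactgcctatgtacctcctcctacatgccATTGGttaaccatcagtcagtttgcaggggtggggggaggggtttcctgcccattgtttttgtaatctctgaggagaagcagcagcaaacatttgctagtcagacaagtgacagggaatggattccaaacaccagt

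This stretch held 36.7% G and C, against a median of 58.7% over the 35097 promoters of the table. The CCAAT letters were found in 34.6% of those promoters. None of the other motifs searched on both strands, a FOXA motif (TGTTTAC, in 3.42% of promoters), a TATA box (TATAAA, 11.5%) and a GC box (GGGCGG, 44.9%), was found in it. No sequence is shown for the regions themselves, because no hg19 genome was used here.

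The 3 loci differed in how much H3K4me2 they carried. The HSD17B6 window (64467 bp) held 8 vehicle, 6 GSK 4 h and 6 GSK 24 h regions, where the average density of each list would give 2.14, 2.74 and 2.72. The OPRK1 window (65919 bp) held 2, 5 and 4 regions, against 2.19, 2.81 and 2.79 at the average density. The AKR1C3 window (53311 bp) held 2 regions in each list, against 1.77, 2.27 and 2.25. Regions covered 8.29%, 6.01% and 7.16% of the HSD17B6 window in the vehicle, GSK 4 h and GSK 24 h lists, 3.04%, 4.06% and 4.33% of the OPRK1 window and 2.94%, 3.00% and 3.04% of the AKR1C3 window. H3K4me2 thus covered the start of OPRK1 and of AKR1C3 in every list, whereas no list had a region over the start of HSD17B6.

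**Figure D1:**
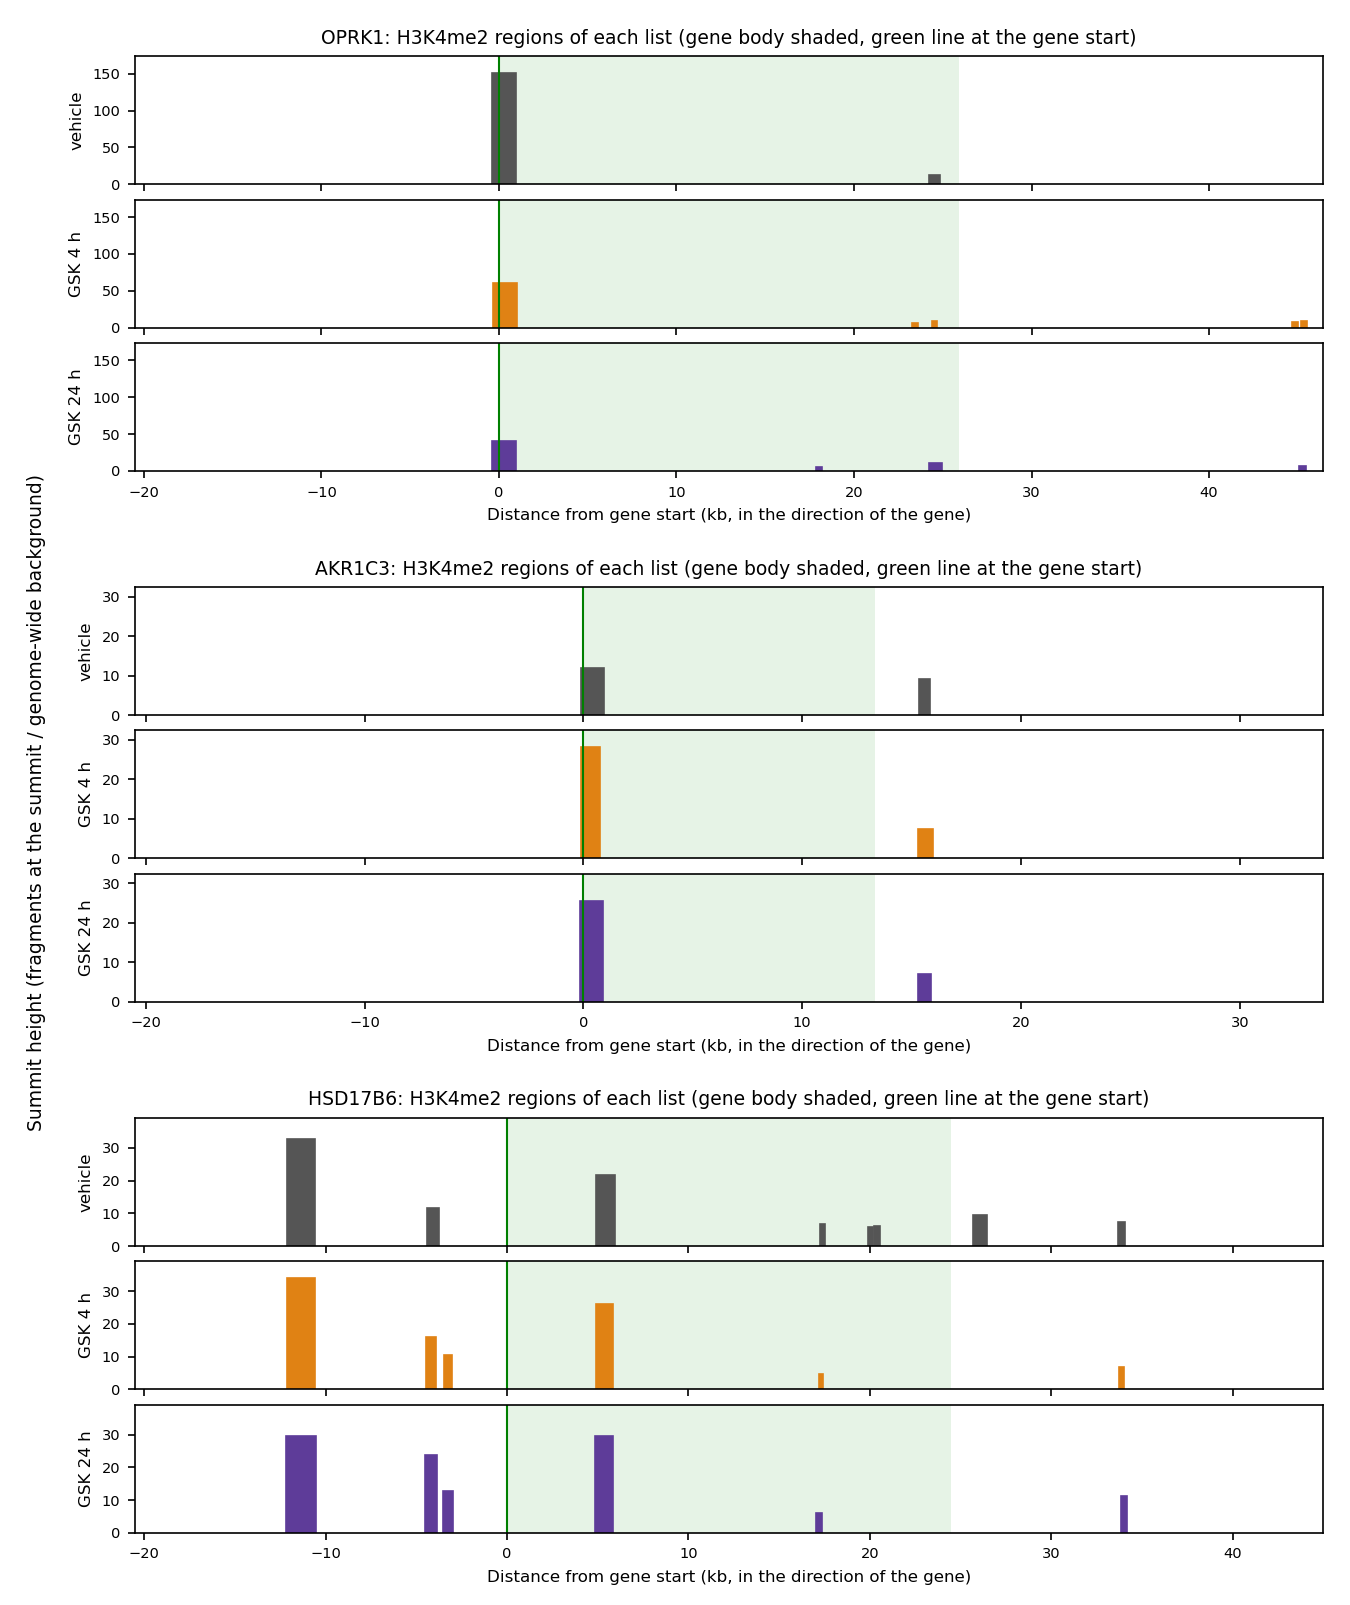
H3K4me2 regions in the OPRK1, AKR1C3 and HSD17B6 windows. The x axis is the distance from the gene start in kb, the y axis is the summit height over the genome-wide background, and each bar is 1 region of the vehicle, GSK 4 h or GSK 24 h list (the y scale differs between genes). The bar at the OPRK1 start is highest in the vehicle list (151), and the bar at the AKR1C3 start is lowest in the vehicle list (11.995).

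The comparison was of H3K4me2 at these genes between the vehicle list and the GSK lists, which by the sample labels also differ in DHT. Of the OPRK1 regions found in every list, the one at the gene start differed most from vehicle in height. The region there, on chromosome 8 from 54163153 to 54164607 (merged over the lists), reached from 413 bp upstream to 1041 bp inside the gene, which is read on the minus strand. Its summit held 315 fragments under vehicle, 113 at GSK 4 h and 80 at GSK 24 h. These pileups gave heights of 151 (135 to 169), 60.0 (49.5 to 72.2) and 40.7 (32.3 to 50.6). The vehicle interval lay above both others, and those of GSK 4 h and GSK 24 h overlapped narrowly. Relative to vehicle, the height was 0.397 (0.318 to 0.494) at GSK 4 h and 0.269 (0.208 to 0.345) at GSK 24 h. It was also lower at GSK 24 h than at GSK 4 h, with a ratio of 0.678 (0.502 to 0.911).

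The extent of the OPRK1 start region was alike in the lists, at 1374, 1382 and 1377 bp for vehicle, GSK 4 h and GSK 24 h. Its summit lay 103 bp upstream of the start in the vehicle list, and 248 and 198 bp downstream of it in the GSK 4 h and GSK 24 h lists. The authors' fold enrichment differed far less than the height, with 11.98 under vehicle, 9.22 at GSK 4 h and 8.86 at GSK 24 h. The local background used for that fold was 25.4 fragments under vehicle, 11.4 at GSK 4 h and 8.15 at GSK 24 h, and so was lower along with the summit. Within its own list the region stayed among the highest, at the 98.6th (vehicle), 97.8th (GSK 4 h) and 96.0th (GSK 24 h) percentile of height. Its percentiles of fold were 96.2, 94.1 and 95.3 in the same order.

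A lower height at OPRK1 was shared with many other high regions. Of the 53752 regions found exactly once in each list, those in the highest 10% by GSK 4 h height had a median GSK 24 h height of 0.708 relative to vehicle (quartiles 0.311 to 1.004), and OPRK1 lay at the 18.7th percentile of these 5376 ratios. For GSK 4 h, the highest 10% by GSK 24 h height had a median of 0.981 (0.589 to 1.23), with OPRK1 at the 8.72nd percentile. In these steps, 48.2% (GSK 24 h) and 28.3% (GSK 4 h) of regions were lower than vehicle by at least 1.5-fold.

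Inside the OPRK1 gene, another region was in all 3 lists, on chromosome 8 from 54139209 to 54139994, 24200 bp past the start and close to the gene end. Its summit was covered by 25 (vehicle), 16 (GSK 4 h) and 22 (GSK 24 h) fragments, or heights of 11.995, 8.50 and 11.2. The ratios to vehicle of 0.709 (0.354 to 1.38) and 0.933 (0.501 to 1.72) had intervals that include 1, so a difference was not detectable at this depth. In the vehicle list this lower region and the high start region were the only ones in the OPRK1 window.

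The other OPRK1 regions were in GSK lists alone and had few fragments at their summits. Where the -log10 q had to reach 10, the OPRK1 window held 2 vehicle, 1 GSK 4 h and 2 GSK 24 h regions, so the larger GSK numbers rest on regions under that limit. A region on chromosome 8 from 54118687 to 54119133, beginning 19143 bp past the gene end, was in both GSK lists with 17 (GSK 4 h) and 14 (GSK 24 h) fragments. By fold this region stood at the 63.5th (GSK 4 h) and 52.0th (GSK 24 h) percentile, and by height at the 38.8th and 26.2nd. Beside it, a region from 54119160 to 54119539 was in the GSK 4 h list with 13 fragments. Within the gene, a region from 54140602 to 54140908 was in the GSK 4 h list with 12 fragments and one from 54146009 to 54146322 was in the GSK 24 h list with 10. Their fold enrichments ran from 3.71 to 5.57. At the genome-wide background, the lowest pileup that was called was 8 in the vehicle list and 7 in each GSK list, against 10 to 17 at these summits.

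At AKR1C3 the start region was higher in both GSK lists than in vehicle. This region, on chromosome 10 from 5136420 to 5137502, reached from 148 bp upstream to 934 bp inside the gene. Its summit held 25 fragments under vehicle, 53 at GSK 4 h and 50 at GSK 24 h. The heights were 11.995 (7.76 to 17.7) under vehicle, 28.2 (21.1 to 36.8) at GSK 4 h and 25.4 (18.9 to 33.5) at GSK 24 h, so that the vehicle interval overlapped neither of the others. Relative to vehicle, the height was 2.35 (1.43 to 3.94) at GSK 4 h and 2.12 (1.29 to 3.58) at GSK 24 h. GSK 24 h and GSK 4 h could not be told apart, with a ratio of 0.903 (0.601 to 1.35).

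The fold enrichment at the AKR1C3 start moved the same way, from 7.34 (vehicle) to 12.1 (GSK 4 h) and 10.3 (GSK 24 h). By fold the region stood at the 80.6th percentile of the vehicle list, the 98.9th at GSK 4 h and the 98.2nd at GSK 24 h. Its percentiles of height were lower, at 55.1, 82.7 and 84.1 in the same order. By height, ratios as high as the 2.35 (GSK 4 h) and 2.12 (GSK 24 h) of this region were uncommon among all regions found once in each list. In the 10% step of like height in the third list, the median height ratio was 1.18 at 4 h and 1.10 at 24 h. The AKR1C3 start lay at the 99.5th percentile of the 5375 height ratios in both. Its summit stayed within 76 bp across the lists, 201, 160 and 125 bp inside the gene for vehicle, GSK 4 h and GSK 24 h.

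The other AKR1C3 region lay past the gene end by 1987 bp, on chromosome 10 from 5151865 to 5152566. It was covered by 19 (vehicle), 14 (GSK 4 h) and 14 (GSK 24 h) fragments, with heights of 9.12, 7.44 and 7.12. The ratios of 0.816 (0.379 to 1.72) and 0.781 (0.362 to 1.64) were thus below 1 in both GSK lists, with intervals that include 1. AKR1C3 lies among closely related genes of its family (AKR1C2 and AKR1C1 on one side and AKR1C8 and AKR1C4 on the other in RefSeq), and how reads that match several of them were placed is not given in the sources used here.

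HSD17B6 had its H3K4me2 on both sides of the start rather than over it. The strongest region in the vehicle list lay upstream, on chromosome 12 from 57144940 to 57146605, between 12168 and 10503 bp before the start, on the side of the neighbouring gene PRIM1, a subunit of DNA primase. Its summit was covered by 68 (vehicle), 64 (GSK 4 h) and 58 (GSK 24 h) fragments, or heights of 32.6, 34.0 and 29.5. The ratios to vehicle of 1.04 (0.729 to 1.49) and 0.904 (0.626 to 1.303) showed no detectable difference. The GSK 4 h summit lay 1122 bp from the vehicle summit, so the GSK 4 h ratio compares different points within the region. For GSK 24 h and vehicle the summits lay 69 bp apart. Whether this region covers the start of PRIM1 was not analysed here.

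Nearer to the HSD17B6 start, H3K4me2 was higher in the GSK 24 h list than in the vehicle list. The region on chromosome 12 from 57152569 to 57153381, 3727 bp upstream, had a summit of 24 fragments under vehicle, 30 at GSK 4 h and 47 at GSK 24 h. The heights were 11.5 (7.38 to 17.1), 15.9 (10.8 to 22.8) and 23.9 (17.6 to 31.8). The vehicle and GSK 24 h intervals did not overlap, whereas the GSK 4 h interval overlapped both. The ratio to vehicle was 1.38 (0.782 to 2.47) at GSK 4 h and 2.08 (1.24 to 3.55) at GSK 24 h. For GSK 24 h relative to GSK 4 h, the interval of the ratio (0.929 to 2.46) included 1. A stepwise rise with time was therefore not resolved. In its 10% step, the median GSK 24 h ratio was 1.16, and this region lay at the 98.4th percentile.

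A further upstream region was called at GSK 4 h and at GSK 24 h but not under vehicle. It lay on chromosome 12 from 57153595 to 57154125, 2983 bp before the HSD17B6 start, and was the nearest region to that start in any list. Its summit held 20 (GSK 4 h) and 25 (GSK 24 h) fragments, with heights of 10.6 (6.49 to 16.4) and 12.7 (8.23 to 18.8) and fold enrichments of 4.63 and 4.45. The fold percentiles of 44.4 and 44.7 place it near the middle of both GSK lists. It lies under 1 kb from the region 3727 bp upstream, which every list held. In both GSK lists it joined that region where records within 1 kb were merged. The HSD17B6 window then held 7 vehicle, 5 GSK 4 h and 5 GSK 24 h regions.

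Inside the HSD17B6 gene, the main region lay on chromosome 12 from 57161932 to 57163043, 4824 bp past the start. Its summit was covered by 45 (vehicle), 49 (GSK 4 h) and 58 (GSK 24 h) fragments, with heights of 21.6, 26.0 and 29.5. The ratios of 1.21 (0.788 to 1.85) and 1.37 (0.910 to 2.06) had intervals that include 1. The GSK 4 h summit of this region lay 366 bp from the vehicle summit. A weaker region from 57174121 to 57174652 had 14, 9 and 12 fragments in the same order. Past the gene end by 9208 bp, a region from 57190782 to 57191273 had 15, 13 and 22 fragments, with a GSK 24 h ratio of 1.55 (0.771 to 3.22).

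The vehicle list held 3 HSD17B6 regions that were in neither GSK list. They lay on chromosome 12 from 57177009 to 57177255 and from 57177329 to 57177653, both inside the gene, and from 57182805 to 57183568, 1231 bp past its end. Their summits were covered by 12, 13 and 20 fragments, with fold enrichments of 3.69, 4.03 and 6.12. The last of them was at the 68.4th percentile of fold in the vehicle list, whereas the others were at the 17.4th and 26.3rd. The 3 regions therefore included weak ones and 1 of moderate strength. Those inside the gene lie under 1 kb apart. With records within 1 kb merged they count as 1, and the window held 7 vehicle regions in place of 8. Where the -log10 q had to reach 10, the HSD17B6 window held 4 vehicle, 3 GSK 4 h and 4 GSK 24 h regions. Of the 3 regions, only the last, with a -log10 q of 10.3, was above that limit.

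**Figure D2:**
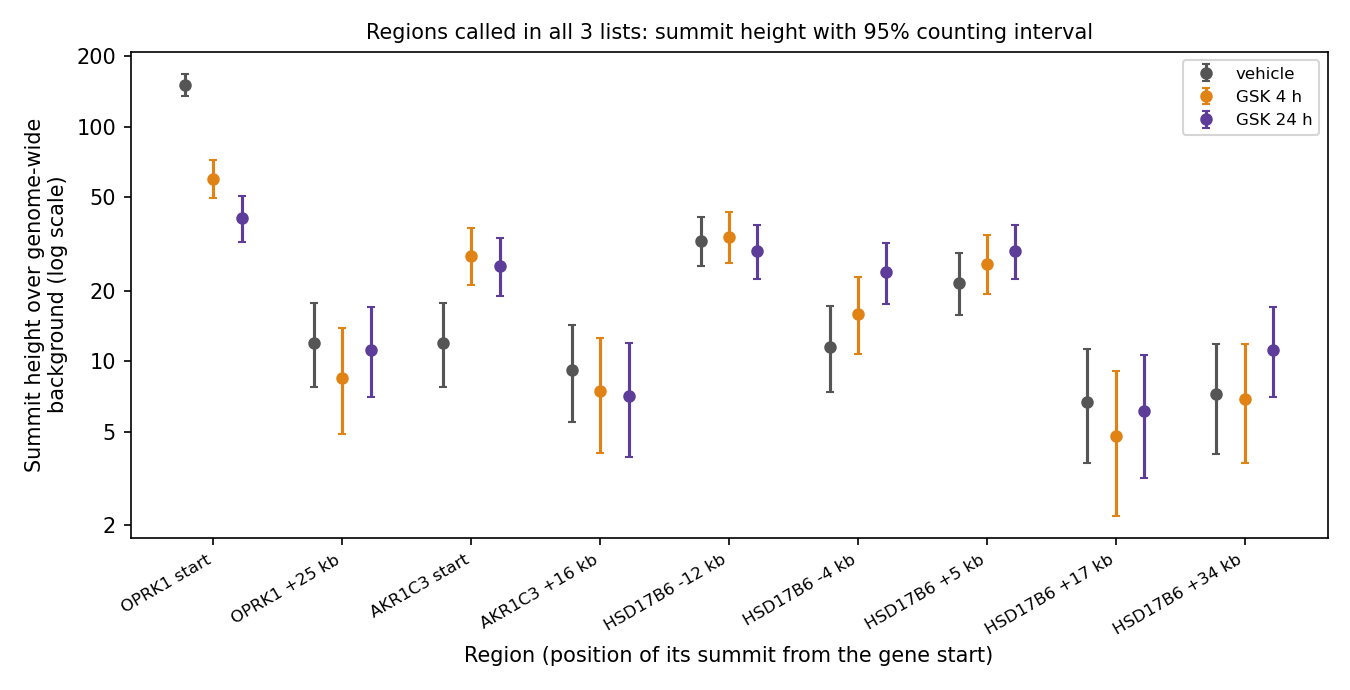
Summit height of the 9 regions found in all lists. The y axis is the height over the genome-wide background on a log scale, each point is 1 list with its exact 95% counting interval, and the x axis names each region by its gene and the position of its summit. The intervals of vehicle and GSK 24 h separate at the OPRK1 start, the AKR1C3 start and the HSD17B6 region 3727 bp upstream.

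Across the 3 genes, 9 of the 17 regions (52.9%) were in all lists, against 47.9% of all merged regions. The vehicle list alone held 3 (5.44% of all merged regions), both GSK lists without vehicle 2 (11.0%), GSK 4 h alone 2 (14.5%) and GSK 24 h alone 1 (14.3%). Of the 12 vehicle regions, 3 (25%) had no GSK 4 h counterpart and 3 (25%) had no GSK 24 h counterpart, against 15.7% and 14.0% of the whole vehicle list. These were the same 3 HSD17B6 regions, and 8.27% of all vehicle regions were likewise in neither GSK list. Those inside the gene count as 1 where records within 1 kb are merged, whereas all shares given here are without merging. Of the GSK regions, 4 of 13 at 4 h (30.8%) and 3 of 12 at 24 h (25%) were outside the vehicle list, close to the 33.0% and 32.0% of the whole GSK lists. Some of these regions join a region that vehicle also held where records within 1 kb are merged.

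Among the 9 regions in all lists, 1 was lower than vehicle by at least 1.5-fold at GSK 4 h (10.4% of all matched regions were) and 1 at GSK 24 h (11.2%), in both cases the OPRK1 start. At GSK 4 h, 1 was higher by at least 1.5-fold (24.5% of all matched regions were), namely the AKR1C3 start. At GSK 24 h, 3 were higher by that much (15.3% of all matched regions were), namely the AKR1C3 start, the HSD17B6 region 3727 bp upstream and that past the HSD17B6 end. These calls depended on the scale. With the authors' fold enrichment in place of height, 0 of the 9 regions were higher by at least 1.5-fold at GSK 24 h (5.87% of all matched regions were), as the 3 just named had ratios of 1.41, 1.40 and 1.49, and 0 were lower by that much (8.66%). At GSK 4 h the AKR1C3 start stayed past that limit on the fold scale, at 1.65 (10.5% of all matched regions were higher), and the lower region was that near the OPRK1 gene end, at 0.665 (7.78% were lower), in place of the OPRK1 start. Between the GSK lists, 1 of the 9 was higher at 24 h than at 4 h by at least 1.5-fold (7.99% of all matched regions), that past the HSD17B6 end, and 0 were lower by that much (19.2%). The ratios to vehicle ran from 0.397 to 2.35 at GSK 4 h and from 0.269 to 2.12 at GSK 24 h. The median over all matched regions was 1.19 at GSK 4 h and 1.11 at GSK 24 h. Both GSK lists are set against the same vehicle list, so 1 vehicle value enters both ratios of a region. By height, the start region was lower than vehicle at OPRK1 and higher at AKR1C3 in both GSK lists. HSD17B6 had no single direction, with 1 of its 2 upstream regions found in all lists higher at GSK 24 h and 3 regions called in the vehicle list alone. The stronger upstream region was within counting error of vehicle. It lies on the side of PRIM1, and whether it covers the start of that gene was not analysed here.

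**Figure D3:**
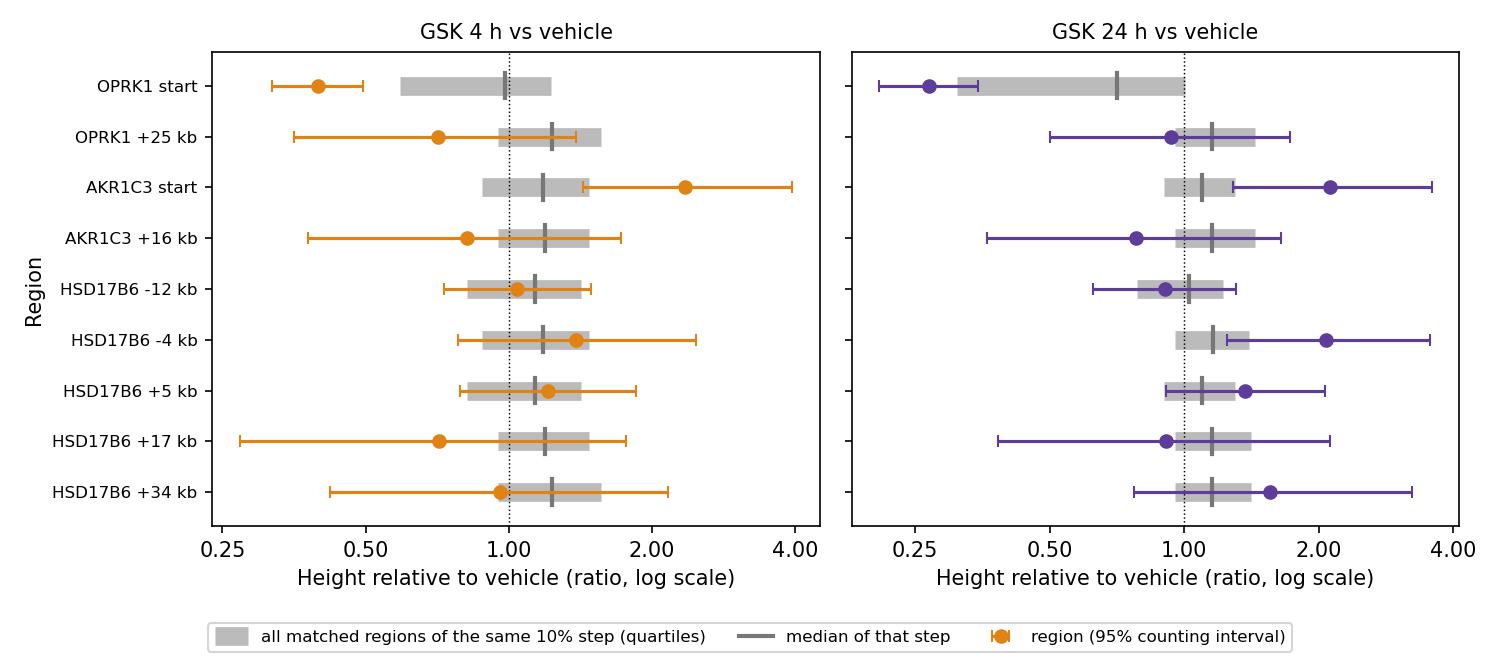
Height relative to vehicle of the 9 regions found in all lists, for GSK 4 h and GSK 24 h. The x axis is the ratio on a log scale, points are the regions with exact 95% counting intervals, and grey bars and ticks are the quartiles and median of all matched regions of the same 10% step of height in the third list. The OPRK1 start lies to the left of the grey bar in both panels (0.397 and 0.269) and the AKR1C3 start to the right of it (2.35 and 2.12).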

How the data were processed

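H3K4me2 ChIP-seq libraries (ThruPLEX kit) were made from 6 LNCaP samples. The submitters' processing notes name BWA 0.7.2-r351, SAMtools 0.1.18, MACS2 2.0.10.20131216 and hg19, and the settings are not given in the sources used here. The deposited peak lists, 1 per group from both replicates, give positions, a fold enrichment (a ratio over background), -log10 p-values, -log10 q-values and a display score by the authors' peak caller, not scaled between lists. Only records on the numbered chromosomes, X and Y were kept, and no records touched each other. The summit pileup was taken as the whole number for which the fold equals (pileup + 1)/(background + 1) and the p-value is the Poisson chance of exceeding it, within 0.001 on the -log10 p scale. It was found for 99.9% of vehicle and 100% of GSK regions, among them every region at the 3 genes. The step was also tested on simulated data made with the same formulas. That test shows whether pileups can be worked back, not whether the peak caller used these formulas. The lowest background of a list was its genome-wide background, and the shortest region its fragment length. Pileups cannot pass 442 (vehicle), 372 (GSK 4 h) and 438 (GSK 24 h) if 1 tag per position and strand is kept, and the highest found were 434, 364 and 431, so very high summits are compressed. Regions matched with an overlap of at least 1 bp. Pileups carry exact Poisson intervals, and ratios exact binomial (Clopper-Pearson) intervals of one pileup given the sum of both, for counting error only. The 10% steps rank the matched regions by height in the list outside the comparison.

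The text names every region of a window with at most 12 merged regions. The gene bodies are hg19 spans, with starts set by the gene's strand. No hg19 annotation was used, so exons and introns, other steroid and opioid genes and genes of like pattern were not analysed here. The 3 genes and the lists were chosen with earlier results of these data known. Python 3.11.15 with pandas 2.3.3, SciPy 1.17.1 and matplotlib 3.10.9 was used. Alternatives were other flanks, -log10 q thresholds, lists of equal length, merging, another height scale and another matching.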

Additional observations from a re-analysis of the deposited data

How the results depend on the processing

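No paired analysis was possible because the replicates were pooled into 1 list per group, and leaving out a replicate was not possible for the same reason. The number of regions at the 3 genes, 12 (vehicle), 13 (GSK 4 h) and 12 (GSK 24 h), was 7, 6 and 6 in the gene bodies alone. It was 18, 26 and 21 with a flank of 50 kb, and 8, 5 and 7 where the -log10 q had to reach 10, at which GSK 4 h had the fewest in place of the most. With records within 1 kb merged, the number was 11, 10 and 11. With the authors' fold enrichment in place of height, the OPRK1 start was at 0.769 (GSK 4 h) and 0.739 (GSK 24 h) of vehicle, under 1.5-fold. The number of regions in all lists past 1.5-fold at GSK 24 h went from 3 higher and 1 lower by height to 0 and 0 by fold enrichment. With heights scaled by the median of all matched regions, the number lower at GSK 4 h went from 1 to 3. These counts were added as alternatives after seeing the data, and the cause was not tested. Other alternatives kept the height ratios of the strongest region of each gene within their counting intervals. With 9 to 25 fragments at most weak summits, only differences well over 1.5-fold are detectable.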

Other observations

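Between 20 and 50 kb from the gene bodies, 14 further merged regions were found. On the AKR1C3 side, a region 22384 bp before the start, on chromosome 10 from 5113383 to 5114184, had 13 (vehicle), 23 (GSK 4 h) and 20 (GSK 24 h) fragments at its summit. Its height relative to vehicle was 1.96 (0.952 to 4.21) at GSK 4 h and 1.63 (0.772 to 3.57) at GSK 24 h, with intervals that include 1. Past the OPRK1 gene end, a region on chromosome 8 from 54109530 to 54110057 was called at both GSK times but not under vehicle, with 13 and 14 fragments. Upstream of HSD17B6, 4 regions between 57116201 and 57121297 on chromosome 12 were in all lists. Their fold enrichments ran from 2.29 to 3.57 and their heights from 16.8 to 29.5.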
